A study of Mus musculus with 16 samples.

Results

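Glutathione transferases couple the tripeptide glutathione to electrophilic compounds, among them epoxides of inhaled chemicals and aldehydes from oxidised lipids, so that the conjugates can be exported from the cell. The soluble enzymes fall into classes named by Greek letters, and a separate family sits in membranes and shares its fold with enzymes of eicosanoid synthesis. In the lung these enzymes are best known from the airway epithelium, above all from club cells, and many of their genes are switched on through NRF2, the transcription factor that answers electrophile stress.

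The genes described are 10 glutathione transferases chosen by name: Gsta3 and Gsta4 of the alpha class, Gstm1, Gstm2 and Gstm5 of the mu class, Gstt1 (theta), Gsto1 (omega), Gstp1 (pi), and the microsomal Mgst1 and Mgst3. All 10 were measured and tested, among 20629 features in all. The lungs came from male C57/BL6 mice aged 8 weeks, with no further allele or agent named, which either inhaled aerosolised LPS, the bacterial endotoxin, for 5 days or breathed air only. The LPS lungs were taken when the final inhalation ended. RNA of 3 animals was pooled, so that 4 LPS pools and 4 air pools stand for 24 mice, and each pool was hybridised against Universal Mouse Reference RNA, a commercial mixture, on 2 arrays with the dyes swapped. A level below is log2(lung/reference) of a pool, and a difference is LPS minus air on that log2 scale with its standard error (SE, n = 4 pools per group). Air pool 4 was measured on 1 array, because the file of its other array joined images of different arrays.

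Signal was positive in both channels on 97.2% to 99.5% of spots of the 15 arrays used, and the median lung intensity was 4.27 to 28.2 times the local background. The type 2 cell markers, which define alveolar tissue, had a mean level of 3.05 to 4.94 in every pool. Of the 20629 features, 6.67% changed at a limma adjusted p under 0.05, 5.95% being higher and 0.713% lower in LPS. The groups of pools did not overlap for 16.6% of features. The arrays were read with program versions 2.2.3 and 2.2.4, each of which holds 2 pools of each group, and values within each version are given as a batch check. The image names carry the week number 1 for all LPS pools and 4 or 8 for the air pools, so this number and the exposure cannot be told apart. Air pools 1 and 2 have week 4 and version 2.2.4, and air pools 3 and 4 have week 8 and version 2.2.3. Among the air pools, version and week number therefore cannot be told apart either.

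After 5 days of inhaled LPS, 3 of the 10 glutathione transferases were lower than in air and 0 were higher (limma). At an unadjusted p under 0.05, 5 were lower and 0 higher, where 7.72% and 14.8% of all features were. Gsta3, Gstm1 and Gstm5 fell, by 1.51, 0.80 and 0.71 on the log2 scale. Gstm2 and Gsta4 lay lower in every LPS pool than in every air pool without passing the test. The theta, omega and pi class genes and the microsomal Mgst1 and Mgst3 overlapped between the groups. Against the 3 of 10 that fell stands the 0.713% of all features called lower. Against the 5 of 10 without overlap stand the 16.6% of all features. The 10 genes were chosen with earlier results of these data known, so these shares are a description and not a test. The median difference was -0.34 over the 10 genes and 0.0092 over all features.

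**Figure D1:**
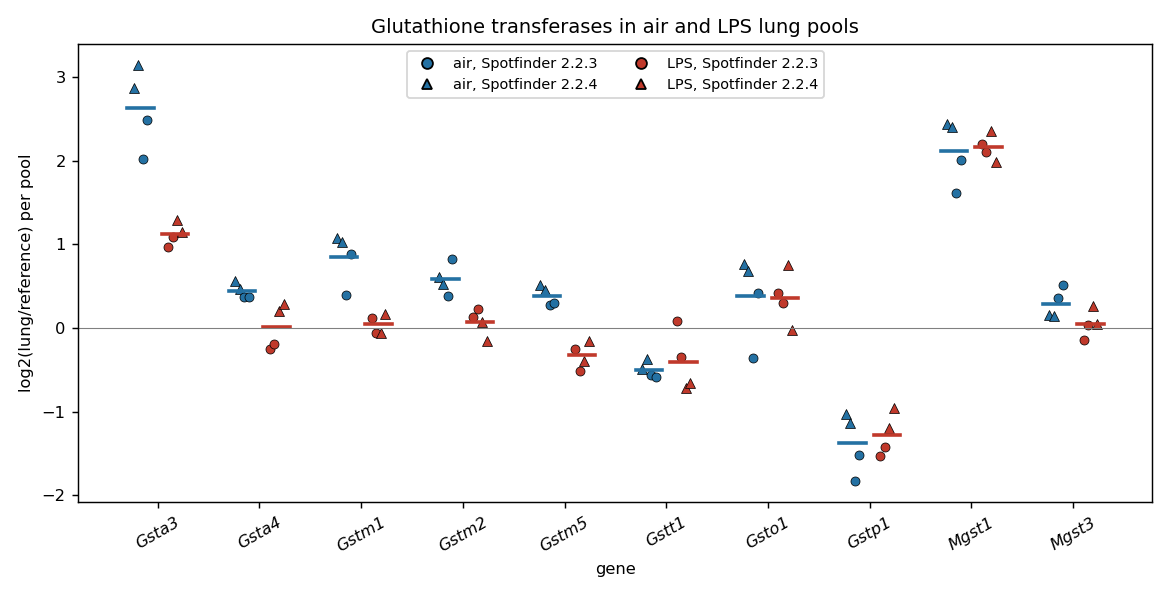
Level of each glutathione transferase as log2(lung/reference) per pool (y axis) for the 10 genes (x axis), with 4 air pools in blue and 4 LPS pools in red, circles and triangles for program versions 2.2.3 and 2.2.4, and a bar at each group mean. The groups lie apart for Gsta3, Gsta4, Gstm1, Gstm2 and Gstm5, with Gsta3 falling from a mean of 2.63 to 1.12, and overlap for the other 5 genes.

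Gsta3 encodes the alpha class enzyme that in the mouse conjugates the epoxide of aflatoxin B1 with high efficiency. Its level was 0.97, 1.09, 1.29 and 1.15 in LPS pools 1 to 4, and 2.87, 3.15, 2.02 and 2.49 in air pools 1 to 4. The highest LPS pool thus lay well below the lowest air pool. The LPS pools lay closer together (SD 0.13) than the air pools (SD 0.49), but arrays of the same pool differed by more than this SD. Those of LPS pool 3 gave 1.80 (lung in Cy3) and 0.78 (lung in Cy5), and those of LPS pool 4 gave 1.52 and 0.77. The small spread of the LPS pools is therefore uncertain. Gsta3 fell 2.84-fold, by 1.51 ± 0.22 (limma adjusted p = 0.0032). By size this was rank 3 among the 124 named genes that fell. The difference was -1.22 within version 2.2.3 and -1.79 within version 2.2.4, and these did not differ past the threshold (interaction -0.57 ± 0.26, limma adjusted p = 0.178). The fall was -1.44 on the arrays with lung in Cy3 and -1.64 on those with lung in Cy5. With the incorrectly joined array of air pool 4 put back, the difference was -1.27 and did not pass (limma adjusted p = 0.073). On the Cy3 arrays alone, where air pool 4 is missing, it did not pass either (adjusted p = 0.137). The Gsta3 spot was the faintest of the 10 at its minimum, at 4.12 times the local background in the lung channel, and stood above background on 15 of 15 arrays.

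Gsta4, an alpha class enzyme that conjugates 4-hydroxynonenal, an aldehyde formed when lipids are oxidised, moved less. Its level was -0.25, -0.19, 0.20 and 0.29 in LPS pools 1 to 4, against 0.56, 0.47, 0.37 and 0.37 in air pools 1 to 4. The groups did not overlap, but the gap between the highest LPS pool and the lowest air pool was small beside the spread of the LPS pools (SD 0.27). The difference of -0.43 ± 0.15 did not pass (limma adjusted p = 0.131). Gsta4 was spotted under 10 probe IDs, and all 10 gave a difference below 0, from -0.53 to -0.29 with a median of -0.41. With the program version as a block Gsta4 passed (limma adjusted p = 0.044). In that fit 5 of the 10 genes were lower, Gsta3, Gsta4, Gstm1, Gstm2 and Gstm5, and 0 were higher, where 2.26% of all features were lower and 8.72% higher.

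The difference of Gsta3 was larger than that of each of the 9 others, by 0.70 (against Gstm1) to 1.61 (against Gstp1) on the log2 scale. Taken pool by pool, Gsta3 minus the other gene was lower in all 4 LPS pools than in all 4 air pools in each of the 9 comparisons. An exact permutation test over pools, two-sided, gave p = 0.0286 in each, the smallest that 4 against 4 pools allow, and 0.0286 after Benjamini-Hochberg adjustment over the 9. Gsta3 was singled out after its values were seen, and the 9 comparisons share its values, so these p-values are no independent support. They do not measure how far Gsta3 stood from each gene. Against Gstm5 the highest LPS pool (1.68) lay just below the lowest air pool (1.74), and against Gstp1 the values were 2.51 and 3.86.

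Gstm1 is a major mu class enzyme that conjugates epoxides and other electrophiles. Its level was 0.12, -0.06, -0.06 and 0.17 in LPS pools 1 to 4, and 1.08, 1.03, 0.39 and 0.88 in air pools 1 to 4. Air pool 3 was the lowest of its group and still lay above every LPS pool. Gstm1 fell 1.74-fold, by 0.80 ± 0.17 (limma adjusted p = 0.0188), with differences of -0.61 and -0.995 within versions 2.2.3 and 2.2.4. The call depended on single pools, since the difference was -0.77 (adjusted p = 0.061) without LPS pool 2, -0.77 (adjusted p = 0.056) without LPS pool 3 and -0.79 (adjusted p = 0.056) without air pool 4.

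Gstm5 is the mouse counterpart of human GSTM3, a mu class gene known from testis and brain. Of the genes that fell it had the tightest air pools (SD 0.12). LPS pools 1 to 4 stood at -0.26, -0.51, -0.39 and -0.16, and air pools 1 to 4 at 0.51, 0.45, 0.27 and 0.30. Every air pool lay above the reference RNA and every LPS pool below it. Gstm5 fell 1.64-fold, by 0.71 ± 0.13 (limma adjusted p = 0.00999), with -0.67 and -0.76 within versions 2.2.3 and 2.2.4, and passed in each of the 8 fits that left out 1 pool (-0.77 to -0.65). It did not pass without LPS pool 3 and air pool 2 together, whose arrays agreed least among the pools with 2 arrays in use (-0.67, adjusted p = 0.074).

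Gstm2, another mu class enzyme, had levels of 0.13, 0.22, 0.07 and -0.16 in LPS pools 1 to 4 and 0.61, 0.52, 0.39 and 0.83 in air pools 1 to 4. The groups were apart, and the difference of -0.52 ± 0.14 lay just outside the threshold (limma adjusted p = 0.058). With the program version as a block it passed (limma adjusted p = 0.037).

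The promoters of the genes were searched for 1 motif. The antioxidant response element, to which NRF2 binds as a dimer with a small MAF protein, has the core TGACNNNGC. This core was searched on both strands, with no overlap with another motif searched, in RefSeq windows of 250 bases before to 50 after the start (GRCm38.p6), which held 9 of the 10 genes. It was found for Gsta3, Gstm5 and Mgst1, that is 3 of 9, where 13.99% of the genes in the table hold it. Of these, Gsta3 and Gstm5 fell and Mgst1 did not change past the threshold. Of the genes that fell, Gstm1 has no match in its windows. The windows of the genes with a match are printed 5′ to 3′ on the gene's strand, with the core in capitals, since they show where it lies. As printed, the match begins 121 bases before the start in Gsta3 (chr1:21240335-21240634, plus strand) and 42 before it in Gstm5 (chr3:107895604-107895903, plus strand). In Mgst1 (chr6:138140277-138140576, plus strand) the printed match begins 56 bases before the start, and the core reads on the opposite strand. A match describes the letters and is no evidence of binding.
Gsta3: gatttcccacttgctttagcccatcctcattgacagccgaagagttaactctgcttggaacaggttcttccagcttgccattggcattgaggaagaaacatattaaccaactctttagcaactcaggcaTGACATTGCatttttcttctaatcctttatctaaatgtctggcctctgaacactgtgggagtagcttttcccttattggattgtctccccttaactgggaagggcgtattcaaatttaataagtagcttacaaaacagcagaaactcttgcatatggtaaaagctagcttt
Gstm5: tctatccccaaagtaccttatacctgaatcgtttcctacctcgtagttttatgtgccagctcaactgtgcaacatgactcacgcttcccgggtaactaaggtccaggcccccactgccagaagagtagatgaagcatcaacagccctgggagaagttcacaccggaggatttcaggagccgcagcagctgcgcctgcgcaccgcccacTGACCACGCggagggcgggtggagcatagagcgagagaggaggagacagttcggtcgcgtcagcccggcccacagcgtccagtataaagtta
Mgst1: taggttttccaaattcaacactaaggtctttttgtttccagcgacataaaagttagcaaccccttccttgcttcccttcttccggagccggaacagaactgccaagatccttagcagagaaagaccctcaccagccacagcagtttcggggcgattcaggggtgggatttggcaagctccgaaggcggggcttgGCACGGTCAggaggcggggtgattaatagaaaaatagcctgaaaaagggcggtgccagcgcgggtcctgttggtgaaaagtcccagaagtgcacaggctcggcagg

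Gstt1, the theta class enzyme known for activating dihalomethanes, had levels of 0.08, -0.35, -0.71 and -0.66 in LPS pools 1 to 4 and of -0.49, -0.37, -0.57 and -0.59 in air pools 1 to 4. The LPS pools spread around the air pools on both sides. The difference was 0.10 ± 0.18 (limma adjusted p = 0.79, 95% interval -0.30 to 0.50), with 0.45 within version 2.2.3 and -0.25 within version 2.2.4.

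Gsto1 encodes the omega class enzyme, which reduces dehydroascorbate and removes glutathione from proteins, and which mouse macrophages need for full signalling through the LPS receptor TLR4. Its level was 0.41, 0.30, 0.75 and -0.02 in LPS pools 1 to 4 and 0.76, 0.69, -0.36 and 0.42 in air pools 1 to 4. Air pool 3 lay below every other pool. The difference of -0.02 ± 0.25 had a 95% interval of -0.58 to 0.55 (limma adjusted p = 0.98), and the program versions gave 0.33 and -0.36.

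Gstp1, the pi class enzyme that also binds and restrains the kinase JNK, was below the reference in all 8 pools. Its level was -1.54, -1.42, -1.20 and -0.96 in LPS pools 1 to 4, against -1.03, -1.14, -1.84 and -1.53 in air pools 1 to 4. The groups overlapped throughout, with a difference of 0.10 ± 0.20 (limma adjusted p = 0.80, 95% interval -0.35 to 0.55).

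Mgst1, which sits in the endoplasmic reticulum and the outer mitochondrial membrane and also reduces lipid hydroperoxides, was above the reference in every pool, at 2.21, 2.11, 2.36 and 1.98 in LPS pools 1 to 4 and 2.45, 2.41, 1.62 and 2.01 in air pools 1 to 4. All LPS pools lay within the range of the air pools, and the difference was 0.04 ± 0.19 (limma adjusted p = 0.92, 95% interval -0.38 to 0.47). Mgst3, which has peroxidase activity, stood at -0.14, 0.03, 0.26 and 0.05 in LPS pools 1 to 4 and at 0.16, 0.14, 0.35 and 0.51 in air pools 1 to 4. LPS pool 3 lay among the air pools, and the difference of -0.24 ± 0.14 did not pass (limma adjusted p = 0.34). Its fainter probe gave 0.16, the opposite sign. The 95% intervals of Gstt1, Gsto1, Gstp1 and Mgst1 each include 0, and each leaves room for a change within its own bounds.

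None of the 10 genes had an LPS difference that depended on the program version past the threshold (limma adjusted p from 0.086 to 0.80), while 8.69% of all features did. At an unadjusted p under 0.05 it did so for 3 of the 10, a share close to the 30.6% of all features.

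Of 16 further family members that were tested, 1 fell, 2 rose and 13 did not pass. Within the mu class all 7 genes had a difference below 0, from -0.97 to -0.14, and 3 of the 7 fell. Gstm3 went from 1.07 ± 0.31 (SD, n = 4) in air to 0.09 ± 0.12 (SD, n = 4) in LPS, by -0.97 ± 0.17 (limma adjusted p = 0.0068). Gstm6 differed by -0.86 ± 0.24 without passing (adjusted p = 0.060), and air pool 3, at 0.45, lay among the LPS pools. With the program version as a block Gstm6 passed (limma adjusted p = 0.020). Gstm4 (-0.14 ± 0.14) and Gstm7 (-0.16 ± 0.15) did not pass and overlapped between the groups. In the RefSeq annotation these genes neighbour each other on chromosome 3 in the order Gstm5, Gstm7, Gstm6, Gstm3, Gstm2, Gstm1 and Gstm4, so that Gstm7 and Gstm6 lie between Gstm5 and Gstm3. Mu class genes are similar in sequence, the probe sequences were not used here, and signal from a neighbour's transcript on a probe was not tested. The separate changes of Gstm1, Gstm2, Gstm3, Gstm5 and Gstm6 are therefore uncertain as single genes.

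**Figure D2:**
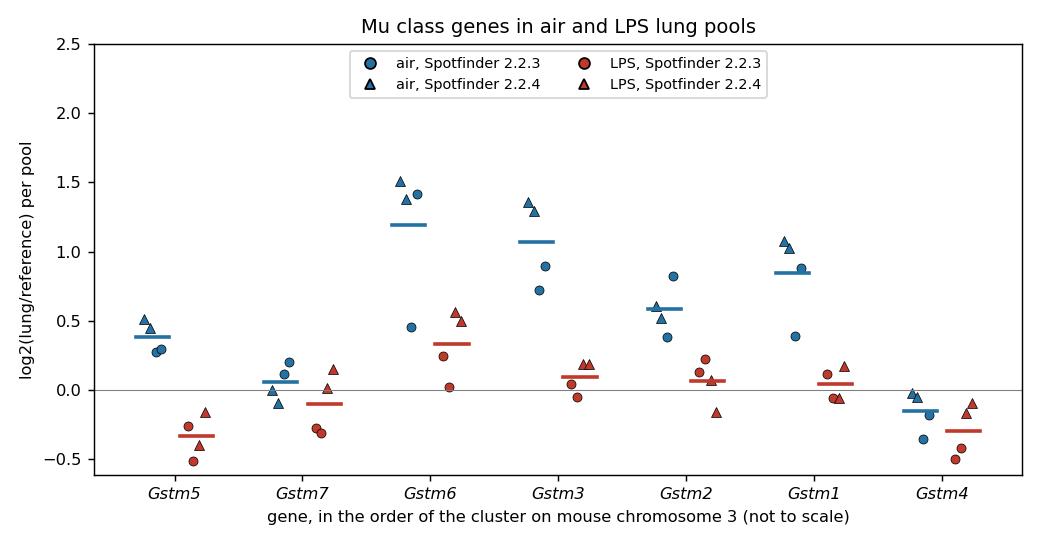
Level as log2(lung/reference) per pool (y axis) for the 7 mu class genes in their order on chromosome 3 (x axis, not to scale), with air pools in blue, LPS pools in red, circles and triangles for program versions 2.2.3 and 2.2.4, and bars at group means. Gstm5, Gstm3, Gstm2 and Gstm1 show no overlap between groups, while Gstm7, Gstm6 and Gstm4 overlap.

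In the alpha class, Gsta1 differed by -0.65 ± 0.32 and did not pass (adjusted p = 0.262), but passed with the program version as a block (limma adjusted p = 0.018). The theta genes Gstt2, Gstt3 and Gstt4 lay between -0.12 and 0.04, and Gsto2 at 0.28 ± 0.16, none of them passing. The zeta class gene Gstz1 (-0.23), the kappa class gene Gstk1 (-0.10) and Hpgds, the sigma class prostaglandin D synthase (-0.34), did not pass either. Both genes of the family that rose belong with Mgst1 and Mgst3 to MAPEG, the family of membrane proteins of eicosanoid and glutathione metabolism. Ptges, the inducible prostaglandin E synthase, rose by 2.02 ± 0.14 (limma adjusted p = 4.28e-05), from a mean of -1.24 in air to 0.78 in LPS. Alox5ap, which presents arachidonic acid to 5-lipoxygenase and has no known transferase activity, rose by 0.75 ± 0.12 (limma adjusted p = 0.0051). Ltc4s, the leukotriene C4 synthase, differed by -0.66 ± 0.21 without passing (adjusted p = 0.095), and passed with that block (limma adjusted p = 0.030). Mgst2 differed by 0.11 ± 0.12.

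**Figure D3:**
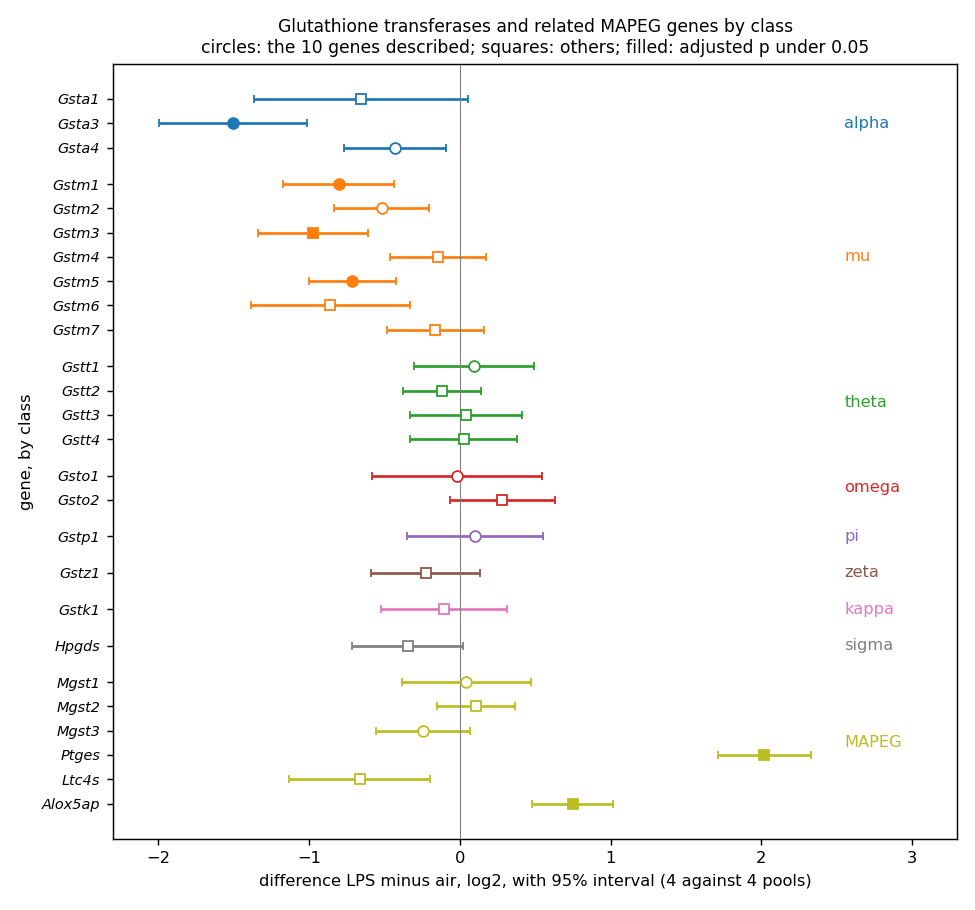
Difference LPS minus air on the log2 scale with its 95% interval (x axis) for 26 genes of the family grouped by class (y axis), as circles for the 10 genes described and squares for the others, filled where the limma adjusted p is under 0.05. All 10 alpha and mu genes lie below 0 with 4 of them filled, and the only filled points above 0 are Ptges (2.02) and Alox5ap (0.75).

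Among genes that supply and recycle glutathione, those that passed the test were higher. Of 16 genes of glutathione synthesis and recycling, 5 rose and 0 fell, with a median difference of 0.16. Slc7a11, the cystine importer, rose by 4.54 ± 0.19 (limma adjusted p = 1.87e-06). Glrx, which removes glutathione from protein thiols, rose by 1.54 ± 0.11 (adjusted p = 5.16e-05), and Gsr, which regenerates reduced glutathione, by 1.53 ± 0.13 (adjusted p = 0.000121). Gclc, the catalytic subunit of the rate-limiting synthesis step, named here after its values were seen, rose by 1.42 ± 0.15 (adjusted p = 0.000511). The other 11 genes of the list did not pass. Among them Gclm differed by -0.01 ± 0.15 (limma adjusted p = 0.97). Gss differed by -0.45 ± 0.18 (limma adjusted p = 0.189), with every LPS pool below every air pool. None of 7 glutathione peroxidase genes passed in limma's test (1 at an unadjusted p under 0.05), and Gpx7 had the smallest p of them at 0.72 ± 0.20 (adjusted p = 0.065). With the program version as a block Gpx7 passed (limma adjusted p = 0.037).

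Among the listed regulators and other NRF2 targets, those that passed were higher. Of 14 regulators of detoxification genes, 4 rose and 0 fell, among them Nfe2l2, which encodes NRF2 (0.96 ± 0.22, limma adjusted p = 0.027), its small MAF partner Maff (0.60 ± 0.15, adjusted p = 0.037) and Cebpb (0.87 ± 0.16, adjusted p = 0.0091). Of 10 other NRF2 target genes, 5 rose and 0 fell, with a median of 0.60. These include Pgd of the pentose phosphate pathway (1.13 ± 0.17, limma adjusted p = 0.0031), the haem oxygenase Hmox1 (0.81 ± 0.14, adjusted p = 0.0068) and the ferritin light chain Ftl1 (0.98 ± 0.21, adjusted p = 0.021). At an unadjusted limma p under 0.05, 6 regulators were higher and 1 lower, and 8 other NRF2 targets were higher and 1 lower. Nqo1, counted below with the oxidation and conjugation enzymes and named after its values were seen, differed by -0.29 ± 0.16 without passing (limma adjusted p = 0.33).

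Enzymes that act beside the transferases moved in both directions. Of 29 oxidation and conjugation enzymes, 6 fell and 4 rose, with a median difference of -0.39. Ephx1, the microsomal epoxide hydrolase, which competes for the same epoxides, fell by 1.11 ± 0.17 (limma adjusted p = 0.0035), and the aldehyde dehydrogenase Aldh3a1 fell by 0.86 ± 0.14 (adjusted p = 0.0050). The aldo-keto reductase Akr1b8 rose by 1.16 ± 0.13 (adjusted p = 0.00075). Among 12 genes of conjugate export and mercapturate formation, 1 rose and 0 fell. It was Abcc1, a pump for glutathione conjugates (0.54 ± 0.13, limma adjusted p = 0.037), while Abcc3 differed by 0.31 ± 0.19 and the dipeptidase Dpep1 by -0.45 ± 0.19 without passing. With the program version as a block Dpep1 passed (limma adjusted p = 0.047).

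**Figure D4:**
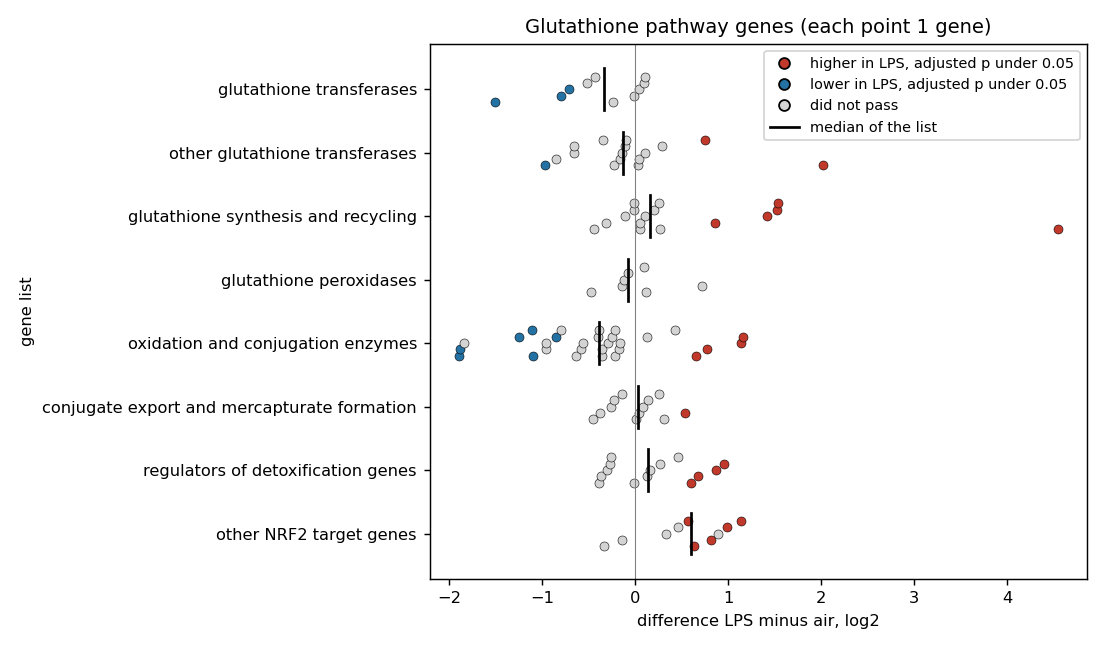
Difference LPS minus air on the log2 scale (x axis) for each gene of 8 lists around glutathione (y axis), in red where higher, blue where lower and grey where the limma test was not passed, with a bar at the list's median. The 10 transferases have 3 points to the left called lower and 0 called higher, against 5 higher and 0 lower for glutathione synthesis and recycling and 6 lower and 4 higher for oxidation and conjugation enzymes.

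The genes whose level followed a fallen member most closely over the 8 pools, among 16329 named genes, are given as a description, since the pools share the groups, the batches and the reference. Gsta3 was followed most closely by Gstm3 (Pearson r = 0.985), by 1810010H24Rik (r = 0.985) and by Pon1, the serum paraoxonase (r = 0.976). For Gstm5 the nearest were Sipa1l1 (r = 0.980), Gstm3 (r = 0.964) and the retinoid receptor gene Rxra (r = 0.961). For Gstm1 they were the phosphodiesterase gene Pde8b (r = 0.986), Ephx1 (r = 0.971) and Slc23a1, an ascorbate transporter (r = 0.971). Pon1 fell by 1.88 ± 0.35 (limma adjusted p = 0.011), and Pde8b by 1.23 ± 0.22 (adjusted p = 0.0093).

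In whole lung, fewer cells of a type and less RNA per cell cannot be told apart, and markers of several cell types moved with the exposure. With the program version as a block, 2 of 7 club cell markers were higher and 3 lower. Without the block, 0 of the 7 passed in either direction by limma (3 higher and 2 lower at an unadjusted p under 0.05), with a median difference of -0.64. Their mean level ranged from 2.63 to 4.04 in LPS pools and from 2.35 to 3.93 in air pools. Cyp2f2, a cytochrome P450 of club cells, differed by -1.84 ± 0.59 (limma adjusted p = 0.096, and 0.00039 with the block), and by -1.90 and -1.78 within versions 2.2.3 and 2.2.4. Aldh1a1 differed by -0.96 ± 0.26 (adjusted p = 0.060, and 0.047 with the block). Its difference depended on the version, at -0.31 in version 2.2.3 and -1.60 in version 2.2.4 (limma interaction adjusted p = 0.048). By contrast, Scgb1a1, the club cell secretory protein, differed by 1.26 ± 0.53 (adjusted p = 0.191). Hp differed by 1.67 ± 0.62 (adjusted p = 0.151, and 0.0040 with the block). None of 7 ciliated cell markers passed (0 at an unadjusted p under 0.05 by limma), with a median of -0.14 and pool means of 0.71 to 1.20 in LPS and 0.67 to 1.37 in air.

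Of 7 macrophage markers 4 rose, and their pool means were 1.16 to 1.59 in LPS against -0.11 to 0.65 in air. Chil3 rose by 2.36 ± 0.28, Fcgr1 by 1.25 ± 0.13 and Adgre1 by 1.05 ± 0.18. Of 9 neutrophil markers 5 rose, with pool means of 1.61 to 2.93 in LPS against 0.13 to 0.98 in air. Clec4d rose by 3.28 ± 0.28, Ltf by 1.62 ± 0.25 and Csf3r by 1.54 ± 0.26. Of the other lists, 2 of 8 fibroblast, 2 of 7 smooth muscle and 1 of 6 type 1 cell markers rose, and 0 fell. They were Col3a1 (1.90 ± 0.17), Pdgfra (0.80 ± 0.20), Acta2 (0.86 ± 0.22), Actg2 (0.81 ± 0.18) and Pdpn (1.34 ± 0.17), named after their values were seen. With the program version as a block, some markers were lower. They were 1 of 8 fibroblast, 1 of 9 endothelial, 2 of 6 B cell and 1 of 4 red blood cell markers. In that fit 4 of 8 fibroblast, 2 of 7 smooth muscle, 1 of 6 type 1 cell and 3 of 10 type 2 cell markers were higher. The part of these cell types in the lower Gsta3, Gstm1 and Gstm5 levels was not tested.

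Across 25 other ways of processing or selecting the arrays, the differences of Gsta3, Gstm1, Gstm2 and Gstm5 were below 0 in 25 of 25. Gsta3 passed in 23, Gstm5 in 22 and Gstm1 in 18 of them, Gstm2 in 3 and Gsta4 in 2. Gstm1 also failed within version 2.2.3 (adjusted p = 0.066), on the Cy5 arrays (adjusted p = 0.096), without LPS pool 3 and air pool 2 together (adjusted p = 0.103) and with the lung channel alone (adjusted p = 0.423). Gstm5 also failed on the Cy3 arrays (adjusted p = 0.074) and with the lung channel alone (adjusted p = 0.446). Gstt1, Gsto1, Gstp1, Mgst1 and Mgst3 passed in 0 of 25, and their sign changed in 5, 7, 7, 4 and 1 of them. The sign of Gsta4 changed in 1, the lung channel alone (0.03).

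**Figure D5:**
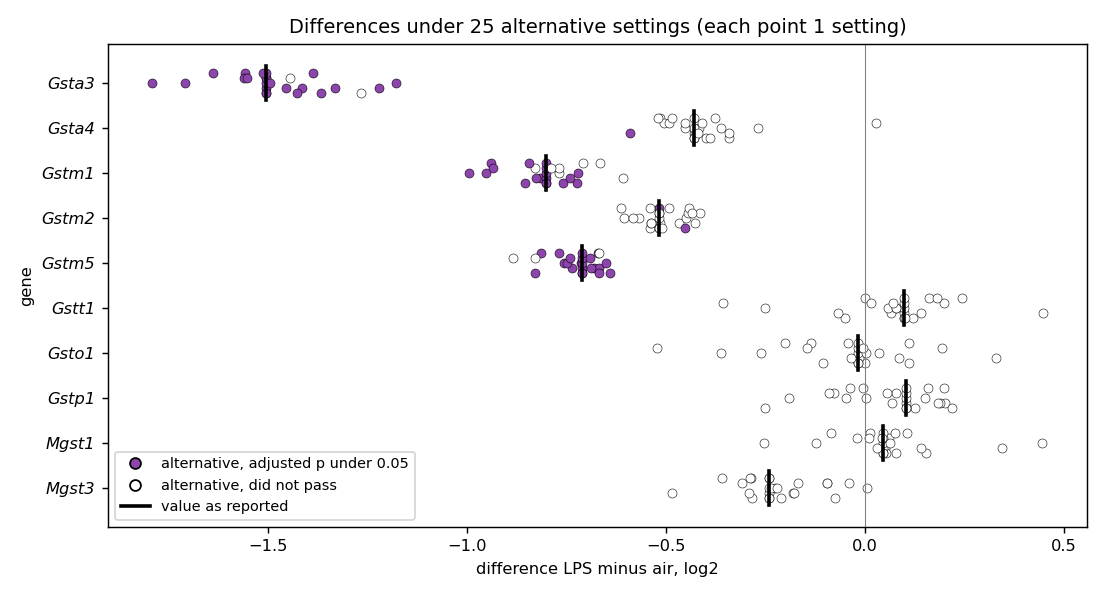
Difference LPS minus air on the log2 scale (x axis) of each of the 10 genes (y axis) under 25 alternative settings, 1 point each, filled where the limma adjusted p is under 0.05, with a bar at the value as reported. Gsta3 stays between -1.79 and -1.18, Gstm1 between -0.995 and -0.61 and Gstm5 between -0.88 and -0.64, while the points of Gstt1, Gsto1, Gstp1 and Mgst1 lie on both sides of 0.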

How the data were processed

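Lung RNA pools and a reference RNA were hybridised on 16 arrays, with groups, pool numbers and dyes taken from the labels. Per the file headers, the deposited intensity values were made with TIGR Spotfinder 2.2.3 or 2.2.4, and the local background was already subtracted. The deposited score per spot (SF) has no definition in the headers. The authors' value table holds log2 ratios, except that the deposited column of the Cy3 array of air pool 4 followed log10 (slope 0.297 against log2). Elsewhere its slopes were 0.961 to 0.997. Its column medians for lung in Cy3 were -0.053, 0.013, -0.136 and -0.129 in LPS pools 1 to 4 and -0.019, -0.096, 0.051 and 0.0033 in air pools 1 to 4. For lung in Cy5 they were -0.045, -0.035, 0.047, 0.034 and 0.059, 0.086, 0.089, 0.078. The direction is lung over reference, and its normalisation and centring stay unknown.

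With R 4.3.3 and limma 3.58.1, ratios were normalised by loess within each array, given as log2(lung/reference), and the arrays of a pool averaged. Spots at or below 0 in a channel were missing. The array of air pool 4 with lung in Cy3 was left out, since per the file headers its Cy5 image is that of another array. The brightest probe stood for a gene, and a feature needed 3 pools per group. Tests (lmFit, eBayes) were two-sided, and p-values were adjusted by Benjamini-Hochberg across every feature, with a threshold of 0.05. Intervals are at 95%. The number of pools limits the precision.

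Gene names rest on laying the annotation over the 215 by 105 grid with both axes exchanged and turned. That layout gave r = 0.523 between probes of a gene, against at most 0.070 for the 7 others. The annotation gave 1 symbol for 18218 probes, several for 16 and none for 4341. Named were the 10 members, the measured further family genes, up to 3 genes with the smallest p per list, and the 3 genes most like each of the 3 members with the smallest p. The members and lists were chosen with earlier results of these data known. Promoters came from RefSeq GRCm38.p6. The fit was tested on simulated data. Pools sharing a number across groups were not paired.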

Additional observations from a re-analysis of the deposited data

Results flagged for a closer look

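In 120 groups of 4 pools (60 named genes in each group), a pool far from the other 3 was found in 5, where chance gives about 1 in 20 groups. These were Gstm6 in air pool 3 (0.45), Ptges in LPS pool 4 (0.54), Gsr in LPS pool 4 (0.32), Akr1b8 in LPS pool 4 (-0.26) and Scgb1a1 in air pool 3 (2.61), all as log2(lung/reference). None of the 10 transferases described had such a pool.

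The LPS difference depended on the program version, by limma's interaction term at an adjusted p under 0.05, for 6 named genes outside the 10. The difference in version 2.2.4 minus that in version 2.2.3 was -0.83 for Gstk1, -0.92 for Gpx7, 1.64 for Gpx2, -0.82 for Nfe2l2, -1.29 for Aldh1a1 and -0.97 for 1810010H24Rik, on the log2 scale.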

How the results depend on the processing

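With 1228 features higher, 147 lower and 3 of the 10 genes lower as reported, the counts moved as follows (higher, lower). They were 476 and 25 with all 16 arrays, 686 and 49 with median centring, 159 and 7 with the lung channel alone (1 of the 10 lower), 401 and 15 on Cy3 arrays (1 of the 10) and 729 and 52 without LPS pool 3 and air pool 2 together (1 of the 10), the last chosen after seeing the data. The program version as a block gave 1798 and 467 (5 of the 10), version 2.2.3 alone 3003 and 1704, and version 2.2.4 alone 902 and 256. Leaving out each pool in turn gave 666 to 1152 higher and 45 to 162 lower, and 2 to 3 of the 10 lower. All 16 arrays and Cy5 arrays left 2 of the 10 lower. In all 25 alternatives, 0 of the 10 were higher. The version dependence passed for 0 of the 10 as reported, for 1 with median centring, with loess and scale normalization and on Cy5 arrays, and for 0 to 2 with a pool left out. Of 1249 values of other named genes, 100 lost the call, 34 gained it, 36 that passed in neither moved by more than the pool spread, 0 reversed and the remaining 1079 did none of these. The cause of these shifts was not tested.

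Pools with the same number in both groups did not deviate together (r = -0.037, -0.263, -0.048 and -0.252). Each such pair joins different program versions, so these values cannot show whether the numbers pair the samples. A block by pool number has the same limit. With the pool number as a replicate block, 795 features were higher and 62 lower, and 3 of the 10 genes were lower. Faint spots limit Gsta3, whose lung signal was at least 4.12 times background, and Mgst3, whose probes disagree.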

Other observations

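Among the air pools, pool 3 had the lowest level for 7 of the 10 transferases, and pool 1 or 2 the highest for 8. Air pools 1 and 2 also share a program version and week number, so pool, version and week cannot be told apart here. Gsto1 and Mgst1, which did not change past the threshold, varied together over the 8 pools (Pearson r = 0.956, and 0.962 for deviations from the group means), although their genes lie on different chromosomes. Deviations of Gsta3 from its group means followed those of Mgst1 (r = 0.896) and Gstp1 (r = 0.838). These correlations were picked after those of all pairs of the 10 genes were seen. They are a description over 8 pools that share a reference RNA, arrays and batches. The Gsto1 value of LPS pool 3 averages arrays that differed by 1.57.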
